A study of Mus musculus with 12 samples.

Results

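The genes described here carry the Hedgehog and parathyroid hormone-related protein (PTHrP) signals in newborn mouse calvaria, the flat bones of the skull roof. They are the ligand gene Ihh, the receptor genes Ptch1 and Smo, the transcription factor genes Gli1, Gli2 and Gli3, the inhibitor gene Hhip, the PTHrP gene Pthlh and its receptor gene Pth1r. They were chosen by name, as 9 of the 23715 genes measured, and 8 of them passed a filter on low values that 13059 genes passed (at least 1 FPKM, fragments scaled to transcript length and library size, in at least 3 of 12 mice). Ihh did not pass it.

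RNA was sequenced from the calvaria of 12 newborn C57BL/6 mice, 3 in each of 4 groups. P-KO mice (Med23 MSC-/-) lacked Med23, which encodes a subunit of the Mediator complex, in cells reached by Prx1-Cre, and P-Ctrl mice were their littermates, labelled WT and described in the methods as controls of the Med23 fl/fl cross. R-Het mice were Runx2+/-, with 1 disrupted copy of the gene for the osteoblast transcription factor RUNX2, and R-WT mice were their WT littermates. The study asked how far loss of Med23 and loss of 1 Runx2 copy move the same genes, and P-KO was compared with P-Ctrl (the Med23 set) and R-Het with R-WT (the Runx2 set). Prx1-Cre acts in mesenchyme of the limbs and of part of the skull, so blood, vessel and other cells of the tissue keep Med23. Each group had its 3 mice as separate samples.

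In Hedgehog signalling the secreted ligand binds PTCH1 and frees SMO, and GLI2 and GLI3 then pass the signal to target genes, among which Gli1, Ptch1 and Hhip are the standard readouts. In the growth plate, Indian hedgehog (IHH) made by maturing chondrocytes sustains PTHrP, whose receptor PTH1R holds other chondrocytes back from hypertrophy. In bone PTH1R is a receptor of osteoblasts and osteocytes, and in the flat bones of the skull Hedgehog signalling acts on cells at the bone fronts and sutures.

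The libraries held an estimated 7810000 to 11650000 fragments each. All 6 osteoblast markers were measured in every group, with summed levels of 6155 to 22288 FPKM. Summed over its transcripts, Med23 was at 4.54 to 5.99 FPKM in P-Ctrl and at 4.89 to 5.74 FPKM in P-KO, but a sum over whole transcripts does not test the loss of internal exons. Runx2 was at 27.3 to 37.7 FPKM in R-WT and at 30.4 to 35.7 FPKM in R-Het. The Runx2 level thus gave no check of the labels, the part of Runx2 that is disrupted is not given in the sources used here, and R-Het stands below for the libraries labelled so. Xist, expressed in females, was over 1 FPKM in 2 P-Ctrl mice and 1 R-WT mouse and in no mutant. The 10 skeletal muscle markers, none of them at 0 in a whole group, summed to 23.9 to 1171 FPKM in P-Ctrl, 503 to 3346.5 FPKM in P-KO, 1467 to 4381 FPKM in R-WT and 26.5 to 148 FPKM in R-Het. By limma 8 of the 10 fell in the Runx2 set, where 1.89% of all genes passed the test. There 10 of 10 had an unadjusted p under 0.05 (15.4% of all genes). In the Med23 set the groups overlapped for each marker and 0 of 10 passed the test (1.57% of all genes). All 10 were above 0 in that set, and 4 had an unadjusted p under 0.05 (21.3% of all genes).

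Sequence is shown for the stretches before the starts of Hhip, the member with the largest differences, of Gli3, the only member with a RUNX motif match, and of Pth1r, whose transcripts differ at their 5′ ends. The stretches are from RefSeq on GRCm38.p6 (mm10) and read 5′ to 3′ on the strand of the gene, ending just before the gene or transcript. Of 9 members 8 had an entry and Gli1 had none. The Hhip stretch (chr8:80058061-80058258, minus strand), the Gli3 stretch (chr13:15463473-15463722, plus strand) and those before the Pth1r transcripts NM_011199 (chr9:110747146-110747395) and NM_001083935 (chr9:110743687-110743936), both on the minus strand, are the following. Capitals mark the match to the RUNX motif.
Hhip: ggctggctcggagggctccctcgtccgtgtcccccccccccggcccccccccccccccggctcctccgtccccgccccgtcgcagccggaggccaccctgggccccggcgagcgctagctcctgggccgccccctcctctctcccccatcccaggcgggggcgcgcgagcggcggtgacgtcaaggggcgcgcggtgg
Gli3: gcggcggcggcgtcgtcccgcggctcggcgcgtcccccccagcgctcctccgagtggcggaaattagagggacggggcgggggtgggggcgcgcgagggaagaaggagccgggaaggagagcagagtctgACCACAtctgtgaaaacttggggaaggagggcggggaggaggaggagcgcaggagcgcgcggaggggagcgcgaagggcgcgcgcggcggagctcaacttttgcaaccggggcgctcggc
Pth1r, before NM_011199: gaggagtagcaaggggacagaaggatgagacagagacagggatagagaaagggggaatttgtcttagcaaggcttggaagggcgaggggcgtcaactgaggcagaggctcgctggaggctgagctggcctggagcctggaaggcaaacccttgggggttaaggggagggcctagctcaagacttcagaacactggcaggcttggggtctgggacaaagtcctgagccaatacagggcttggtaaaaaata
Pth1r, before NM_001083935: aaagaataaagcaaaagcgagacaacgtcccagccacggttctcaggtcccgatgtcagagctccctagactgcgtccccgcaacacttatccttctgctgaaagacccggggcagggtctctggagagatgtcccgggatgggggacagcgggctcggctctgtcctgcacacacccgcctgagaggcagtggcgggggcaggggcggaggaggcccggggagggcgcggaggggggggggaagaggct

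The 250 bases before each start were searched on both strands for a GLI motif, GACCACCCA, and for a RUNX motif, TGTGGT; the letters ACCAC occur in the GLI motif and in the reverse complement of the RUNX motif. For Ptch1, Gli2 and the later Pth1r transcripts the start lies within the annotated gene, so these windows do too. The Hhip window runs into its gene. The search thus did not cover the stretch before the outermost start of Ptch1 and Gli2. No member's window held the GLI letters, which are found in 0.225% of the 32851 promoter windows of this length. The RUNX letters, found in 14.0% of the windows, were matched only before Gli3, on the opposite strand with the first base at position -120 from the gene start. These are matches of letters in a short window and no measure of binding.

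Expression of the members spanned from under 1 to over 100 FPKM. By the median over the 12 mice the order was Pth1r (84.7 FPKM), Smo (37.6), Pthlh (12.4), Gli1 (11.6), Ptch1 (5.83), Hhip (4.76), Gli3 (4.38), Gli2 (2.34) and Ihh (0.455). Pth1r was above Smo, Smo above Pthlh, Gli1 above Ptch1, Gli3 above Gli2 and Gli2 above Ihh in all 12 mice. Neighbours that did not separate were Pthlh and Gli1 (Pthlh higher in 7 of 12 mice), Hhip and Gli3 (Hhip higher in 8) and Ptch1 and Hhip (Ptch1 higher in 10). Smo varied least over the 12 mice, with a coefficient of variation of 9.16%, and Hhip and Ihh varied most, with 31.3% and 33.5%. The values rest on an estimated 1443 to 2899 fragments a mouse for Pth1r, 210 to 594 for Hhip, 92 to 202 for Gli2 and 3 to 13 for Ihh.

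**Figure D1:**
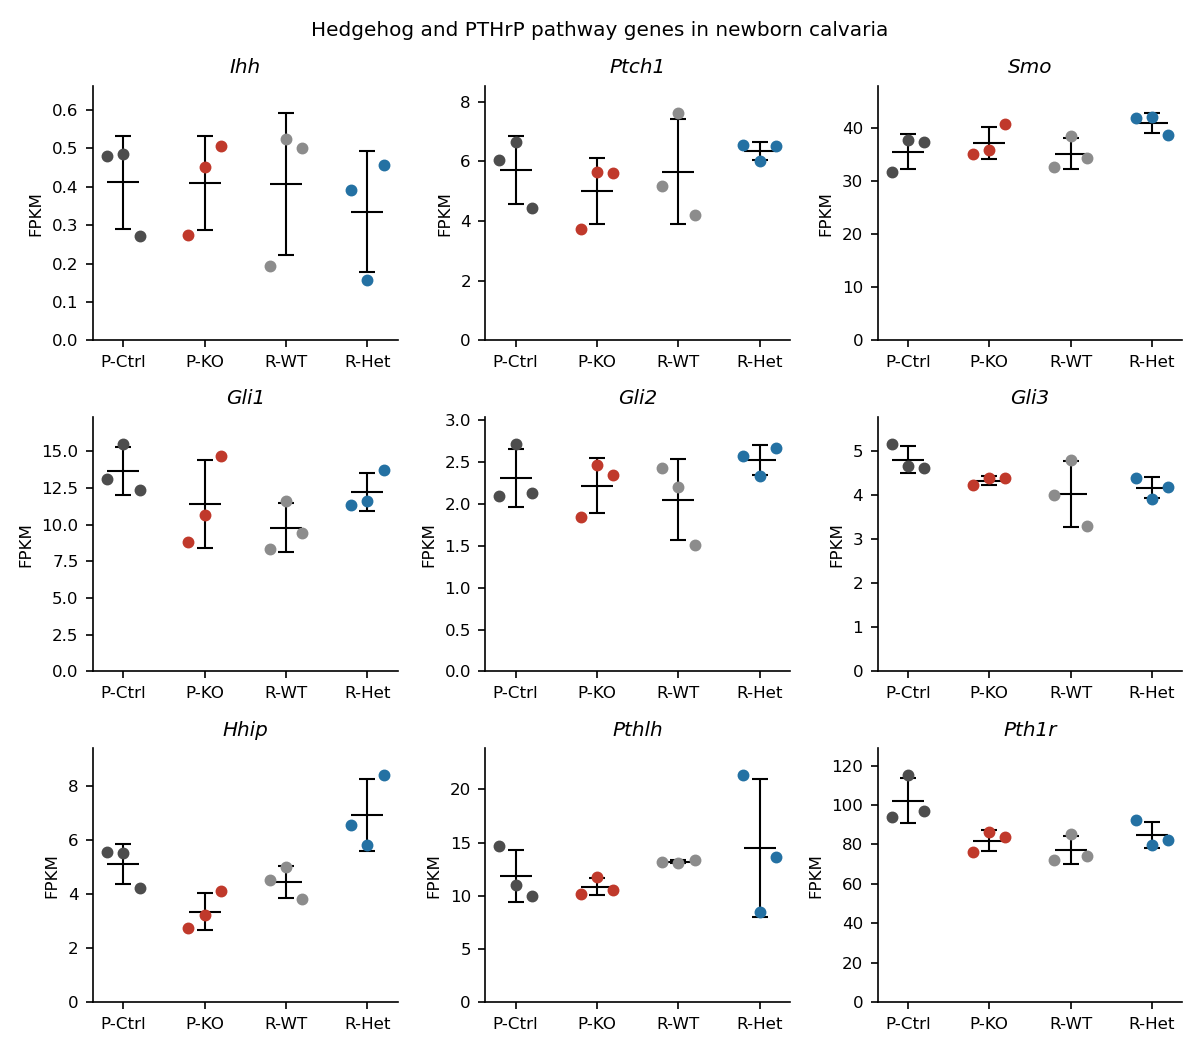
Expression of each member in FPKM (y axis, linear from 0) in the 3 mice of each group (points), with the mean and SD (bars). Hhip is lower in each P-KO mouse than in any P-Ctrl mouse and higher in each R-Het mouse than in any R-WT mouse; Ihh lies below 0.6 FPKM everywhere.

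No member passed the test in either set. With limma on log2(FPKM + 1) and Benjamini-Hochberg adjustment over all 13059 genes, 0 of 8 members had an adjusted p under 0.05 in the Med23 set, where 1.57% of all genes did, and 0 of 8 in the Runx2 set, where 1.89% did. At an unadjusted p under 0.05 there were 2 members in the Med23 set (Hhip and Pth1r; 21.3% of all genes) and 3 in the Runx2 set (Hhip, Smo and Gli1; 15.4%). limma without its mean-variance trend also called 0 members in both sets. The log2 fold changes of the 6 Hedgehog members tested were below 0 for 5 in the Med23 set, with a median of -0.14 against 0.06 over all genes, and above 0 for all 6 in the Runx2 set, with a median of 0.22 against 0.02. Rescaling the mice to the same FPKM sum turned the sixth in the Med23 set, Smo, to -0.04, and with the mean of the skeletal muscle markers as a covariate 5 of the 6 in the Runx2 set, all but Smo, were below 0. Differences of a group may come from fewer cells of a type or from less RNA per cell, which cannot be told apart in bulk tissue.

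**Figure D2:**
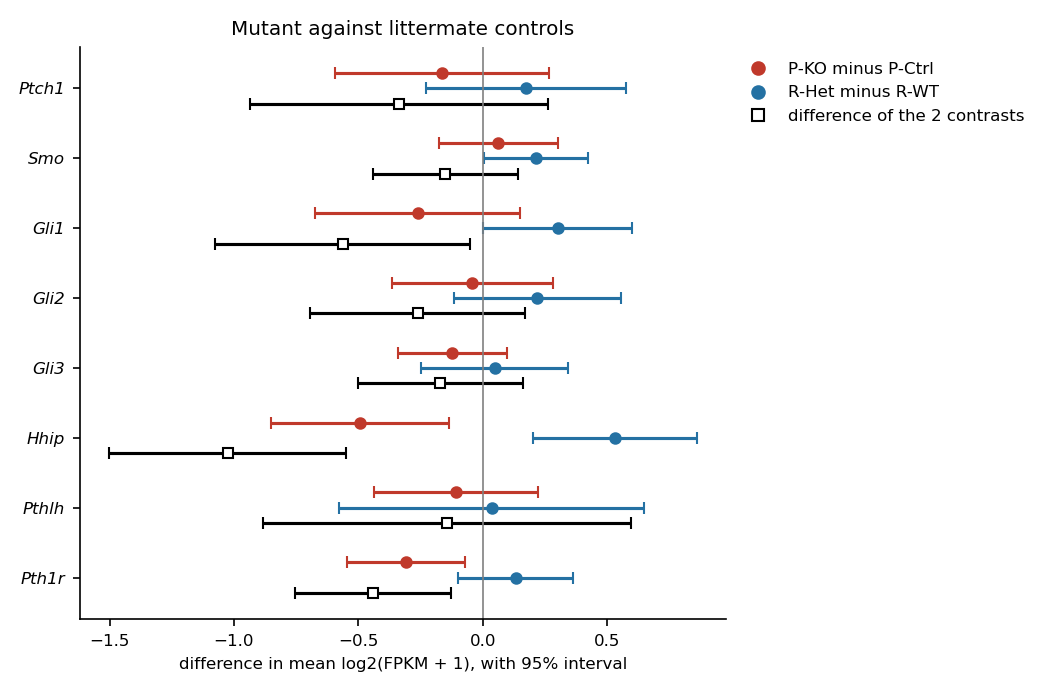
Difference in mean log2(FPKM + 1) between mutant and littermate mice (x axis) for the 8 members tested, in the Med23 set (red circles), in the Runx2 set (blue circles) and for the first minus the second (open squares), with 95% intervals from limma that are not adjusted for the number of genes. Hhip has intervals on opposite sides of 0 in the 2 sets, at -0.49 and 0.53, and a difference of -1.03.

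Ihh (chromosome 1, 74945315 to 74951672, GRCm38.p6), the ligand gene, was close to the floor of the data. It was at 0.479, 0.484 and 0.271 FPKM in P-Ctrl and at 0.273, 0.452 and 0.505 FPKM in P-KO. In R-WT it was at 0.194, 0.525 and 0.502 FPKM and in R-Het at 0.391, 0.158 and 0.458 FPKM. The groups overlapped in both sets. A fit without the low-value filter gave 0.00 ± 0.25 in the Med23 set and -0.07 ± 0.37 in the Runx2 set (log2, half-width of the 95% interval), so that a change was not detectable at 3 to 13 fragments a mouse. Col10a1, the collagen of hypertrophic chondrocytes, did not pass the filter either. It was at 0.429, 1.04 and 1.87 FPKM in P-Ctrl and 0.182, 0.269 and 0.145 FPKM in P-KO, and at 0.666, 0.526 and 0.848 FPKM in R-WT and 0.195, 0.319 and 0.0798 FPKM in R-Het. Unlike those of Ihh, the Col10a1 values of all mutants lay below those of all their controls in both sets. In the Med23 set 7.68% of the 13059 genes that passed the filter did the same. No such share is given here for the Runx2 set or for both sets together. The Col10a1 values of the mutants were as near the floor as those of Ihh. The other Hedgehog ligand genes were no better represented: Shh was listed at 0 in every mouse and Dhh had group means of 0.333 to 0.573 FPKM.

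Ptch1 (chromosome 13, 63508328 to 63573460), which encodes the receptor that restrains SMO and is itself a pathway target, overlapped in both sets. It was at 6.05, 6.63 and 4.43 FPKM in P-Ctrl and at 3.72, 5.66 and 5.62 FPKM in P-KO. In R-WT it was at 5.17, 7.61 and 4.19 FPKM, a range that held all 3 R-Het mice at 6.53, 6.01 and 6.50 FPKM. The log2 fold change was -0.16 (SE 0.18, adjusted p = 0.651, limma) in the Med23 set and 0.17 (SE 0.17, adjusted p = 0.689) in the Runx2 set.

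Smo (chromosome 6, 29735497 to 29761366), the signalling receptor, was the most even member. Its levels were 31.7, 37.8 and 37.4 FPKM in P-Ctrl and 35.1, 35.9 and 40.8 FPKM in P-KO. In the Runx2 set they were 32.8, 38.6 and 34.4 FPKM in R-WT and 42.0, 42.1 and 38.8 FPKM in R-Het, where the lowest R-Het mouse lay just above the highest R-WT mouse. Smo was thus 1 of 2 members, with Hhip, that were higher in every R-Het mouse than in any R-WT mouse, as were 10.7% of all genes. Its log2 fold change was 0.21 (SE 0.09, adjusted p = 0.309) in the Runx2 set and 0.06 (SE 0.10, adjusted p = 0.761) in the Med23 set.

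Gli1 (chromosome 10, 127329882 to 127341579), a transcription factor gene that is switched on by the pathway, was at 13.1, 15.5 and 12.3 FPKM in P-Ctrl. The P-KO mice spread from 8.83 over 10.7 to 14.7 FPKM, 2 below all controls and 1 within them. The R-WT mice were at 8.33, 11.6 and 9.44 FPKM and the R-Het mice at 11.4, 11.6 and 13.7 FPKM, again with an overlap. The log2 fold changes were -0.26 (SE 0.18, adjusted p = 0.433) and 0.30 (SE 0.13, adjusted p = 0.323). Without P-KO replicate 3 or any other single mouse the value in the Med23 set lay between -0.45 and -0.11. Gli1 shares 265 of its 4995 annotated exon bases with the antisense gene Gm47200 and 62 with Arhgap9 on the opposite strand, and the sources used here do not say that strand was kept, so reads of these stretches may belong to either gene.

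Gli2 (chromosome 1, 118834061 to 119054405), the main activator of the pathway, was at 2.09, 2.71 and 2.13 FPKM in P-Ctrl and 1.84, 2.47 and 2.34 FPKM in P-KO. It was at 2.43, 2.21 and 1.51 FPKM in R-WT and 2.57, 2.33 and 2.67 FPKM in R-Het. Both sets overlapped, with log2 fold changes of -0.04 (SE 0.14, adjusted p = 0.895) and 0.22 (SE 0.15, adjusted p = 0.531).

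Gli3 (chromosome 13, 15463723 to 15730026), best known as the repressor of the pathway, was at 5.15, 4.66 and 4.61 FPKM in P-Ctrl and at 4.22, 4.39 and 4.38 FPKM in P-KO. All 3 P-KO mice were below all 3 P-Ctrl mice, as was the case for 3 members (Gli3, Hhip and Pth1r) and 7.68% of all genes. The separation was small, with a log2 fold change of -0.12 (SE 0.09, adjusted p = 0.486). In the Runx2 set the R-Het mice, at 4.39, 3.92 and 4.19 FPKM, lay within the R-WT values of 4.0, 4.79 and 3.30 FPKM (log2 fold change 0.05, SE 0.13, adjusted p = 0.900).

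Hhip (chromosome 8, 79965850 to 80058060), which encodes a membrane protein that binds and removes Hedgehog ligand and is induced by the pathway, had the largest differences among the members. The P-Ctrl mice were at 5.57, 5.51 and 4.24 FPKM and the P-KO mice at 2.74, 3.21 and 4.11 FPKM, with means of 5.11 ± 0.75 and 3.35 ± 0.69 FPKM (SD, n = 3 mice each). The R-WT mice were at 4.53, 4.99 and 3.83 FPKM and the R-Het mice at 6.56, 5.82 and 8.39 FPKM, with means of 4.45 ± 0.58 and 6.92 ± 1.32 FPKM. In both sets the groups did not overlap, and the directions were opposite: every P-KO mouse was below every P-Ctrl mouse, and every R-Het mouse above every R-WT mouse. This combination, lower in P-KO and higher in R-Het, was met by 0.337% of all genes, 44 of 13059. Genes apart in the reverse directions are not in that count. The closest pair in the Med23 set, 4.11 and 4.24 FPKM, was nearly level.

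The log2 fold change of Hhip was -0.49 (SE 0.15, adjusted p = 0.136, limma) in the Med23 set and 0.53 (SE 0.14, adjusted p = 0.118) in the Runx2 set. Neither passed the threshold after adjustment. The exact two-sided permutation test of 3 mice against 3 gave p = 0.1 in each set, the smallest it can give. Tested directly in 1 fit over the 12 mice, the difference of the 2 fold changes was -1.03 (SE 0.22, 95% interval -1.50 to -0.55, adjusted p = 0.0710), rank 102 of 13059 genes by p. Over all genes 0.153% passed the threshold in this contrast, and 0 of 8 members did. At an unadjusted p under 0.05 there were 3 members, Gli1, Hhip and Pth1r, against 15.3% of all genes, and limma without the trend also called 0.

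Marker genes of other tissues moved with Hhip. Over the 12 mice its log2(FPKM + 1) had a Pearson r of -0.72 with the mean of the 10 skeletal muscle markers, 0.58 with that of the 10 cartilage markers and 0.76 with that of the 6 epidermis markers. With the mean of the 5 suture mesenchyme markers r was 0.60, and with that of the 6 osteoblast markers 0.21. These are descriptions over 12 libraries that share the group structure. The suture mean was 5.92 to 6.04 in R-WT and 6.21 to 6.28 in R-Het, and 5.88 to 6.00 in P-Ctrl and 5.92 to 6.18 in P-KO (log2). Of the 5 suture markers 4 had a fold change above 0 in each set, with 0 called. The part of suture mesenchyme in the Hhip values was not tested. With the muscle mean as a covariate the Hhip fold change was -0.49 (SE 0.22, adjusted p = 0.387) in the Med23 set and turned to -0.28 (SE 0.29, adjusted p = 0.839) in the Runx2 set, where the SE was 2.05 times that without the covariate. Over all alternatives the adjusted p of Hhip ran from 0.0854 to 0.618 in the Med23 set and from 0.116 to 0.839 in the Runx2 set. In that set the muscle sums of R-WT and R-Het did not overlap, and muscle content and genotype cannot be told apart. With the covariate the difference between the sets was -0.76 (SE 0.38, adjusted p = 0.999). It came from 1 fit over the 12 mice with 1 muscle slope, while each set alone had its own slope.

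The cartilage markers summed to 161 to 207 FPKM in P-Ctrl, 98.0 to 112 FPKM in P-KO, 95.9 to 169 FPKM in R-WT and 134 to 185 FPKM in R-Het, with no marker at 0 in a group. Col11a2 was the largest single part of these sums, with means of 120.0 FPKM in P-Ctrl and 50.5 FPKM in P-KO. It was at 92.4, 153 and 114 FPKM in P-Ctrl and at 51.3, 66.3 and 33.8 FPKM in P-KO. The gap between the sums of these 2 groups rests on this 1 gene. Col11a2 was not most of the sum in every mouse, with 33.8 of 98.4 FPKM in P-KO replicate 3 and 83.8 of 185 FPKM in R-Het replicate 2. The median log2 fold change of the cartilage markers was -0.43 in the Med23 set, where 1 of 10 (Col2a1, a cartilage collagen) fell. There 6 of 10, Hapln1 among them, had an unadjusted p under 0.05 (21.3% of all genes). In that set 4 were above 0 (Hapln1 at 0.73, Acan at 0.50, Sox9 at 0.22 and Cnmd at 0.21, none past the test). In the Runx2 set the median was 0.49, 0 of 10 passed the test and 3 had an unadjusted p under 0.05 (15.4% of all genes). With the cartilage mean as a covariate Hhip stood at -0.25 (adjusted p = 0.618) and 0.61 (adjusted p = 0.338). The epidermis markers summed to 56.0 to 79.9 FPKM in P-Ctrl, 22.7 to 69.8 FPKM in P-KO, 45.1 to 66.9 FPKM in R-WT and 43.9 to 129 FPKM in R-Het, mostly Krtdap, and 2 of 6 passed the filter. The defining keratin genes Krt5 and Krt14 were between 0 and 0.145 FPKM in all mice. Without the 3 Xist-expressing libraries Hhip was at -0.61 (adjusted p = 0.282) and 0.55 (adjusted p = 0.302). The part of epidermis in the result was not tested.

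Within groups, Hhip varied with Gli1 and Ptch1 from mouse to mouse. After the group means were removed, the deviations of Gli1 and Hhip had a Pearson r of 0.78 over 12 mice (exact permutation within groups p = 0.0193, Benjamini-Hochberg adjusted over 4 pairs 0.0386) and a Spearman rho of 0.76 (exact p = 0.0177, adjusted 0.0710). For Ptch1 and Hhip r was 0.74 (exact p = 0.0123, adjusted 0.0386) and rho 0.66 (exact p = 0.0394, adjusted 0.0787). For Gli1 and Ptch1 r was 0.70 (exact p = 0.0602, adjusted 0.0802) and rho 0.70 (exact p = 0.0818, adjusted 0.109).

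The relations of Hhip with Gli1 and Ptch1 passed the threshold by r and missed it by rho. Without the 2 mice farthest from the median on the x axis r was 0.67, 0.69 and 0.61 for the 3 pairs. Within the 6 mice of the Med23 set r was 0.88, 0.86 and 0.75, and within the 6 of the Runx2 set 0.64, 0.61 and 0.65. The values of both genes of a pair come from the same library, depth and tissue piece in each mouse. Ptch1 deviated as closely with Gli3 (r = 0.76) and Gli2 (r = 0.71) as with the targets. It did so too with Pth1r (r = 0.71), a gene outside the Hedgehog pathway. Pthlh and Pth1r had an r of 0.31 (exact p = 0.390, adjusted 0.390), a rho of 0.06 (exact p = 0.874, adjusted 0.874) and, without the 2 farthest mice, an r of -0.18. Pairs with Ihh were left out because it failed the filter.

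**Figure D3:**
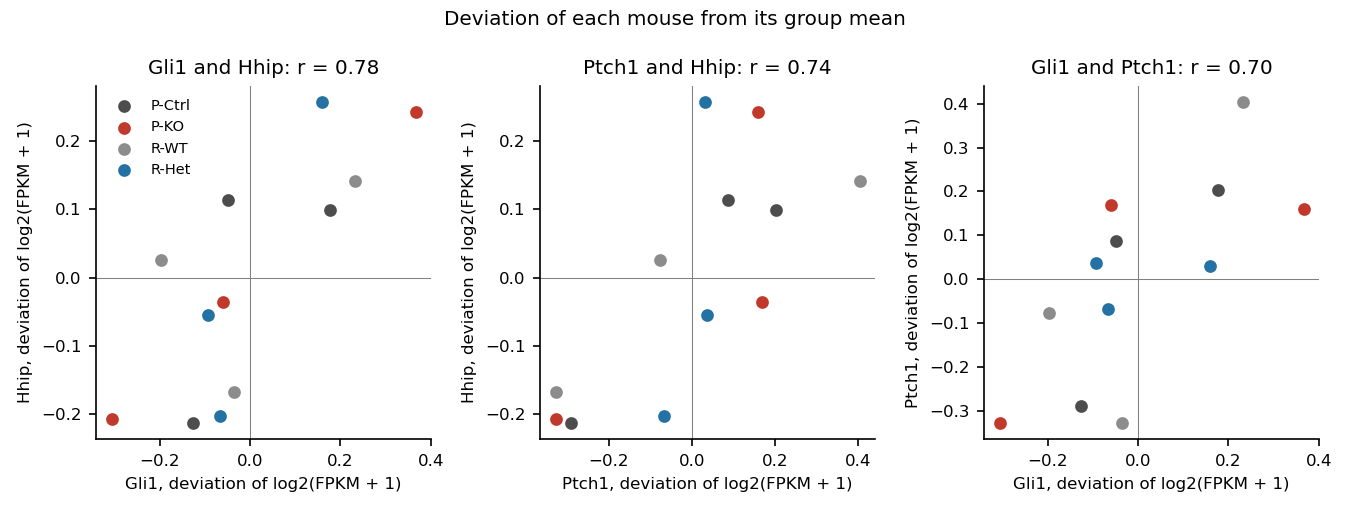
Deviation of each of the 12 mice from its group mean in log2(FPKM + 1), for Gli1 and Hhip, Ptch1 and Hhip, and Gli1 and Ptch1 (x and y axes), coloured by group. Points run from lower left to upper right in all 3 panels, with r of 0.78, 0.74 and 0.70.

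Among the 13059 genes, the pattern of Hhip over the 12 mice was most like those of Cyp26b1 (r = 0.96), which encodes a retinoic acid-degrading enzyme, Fgfr2 (r = 0.94), a fibroblast growth factor receptor gene, and Ssh3 (r = 0.91). Cyp26b1 ranged from 2.11 to 8.90 FPKM and Fgfr2 from 24.5 to 44.7 FPKM. The nearest to Gli1 were Hectd3, Ccdc17 and Igsf8 (r = 0.88 to 0.94), to Ptch1 Sik3, Akap13 and Numa1 (0.92 to 0.94) and to Smo Sulf2, Slc27a3 and Arhgef25 (0.93 to 0.95). Gli3 was most like Unc5c, Ganab and Ano8 (0.86 to 0.92). The nearest to Pthlh were Tnrc6c, Hes1 and Osgin1 (0.84 to 0.89) and to Pth1r Rexo1, Atp13a1 and Pcolce (0.88 to 0.89). These are the highest of many correlations and are given without a test; no member was among the 3 genes nearest to another.

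Pthlh (chromosome 6, 147252109 to 147264013), which encodes PTHrP, was at 14.7, 11.0 and 10.0 FPKM in P-Ctrl and at 10.2, 11.7 and 10.6 FPKM in P-KO. The 3 R-WT mice were nearly level, at 13.1, 13.1 and 13.4 FPKM, while the R-Het mice spread over 21.3, 8.46 and 13.7 FPKM, with 1 mouse far above and 1 below all R-WT mice. The log2 fold changes were -0.11 (SE 0.14, adjusted p = 0.707) and 0.04 (SE 0.27, adjusted p = 0.964). Its within-group SD of 0.34 (log2) was above that of 91.5% of the genes tested. Without R-Het replicate 1 the value in the Runx2 set was -0.27.

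Pth1r (chromosome 9, 110722085 to 110747145), the receptor gene for PTHrP and parathyroid hormone, was at 94.0, 115 and 97.1 FPKM in P-Ctrl and at 76.2, 86.1 and 83.8 FPKM in P-KO. Every P-KO mouse was below every P-Ctrl mouse, with means of 82.0 ± 5.20 and 102 ± 11.4 FPKM (SD, n = 3 mice each). R-WT was at 72.0, 85.5 and 74.2 FPKM and R-Het at 92.2, 79.6 and 82.5 FPKM, which overlapped. The log2 fold change was -0.31 (SE 0.10, adjusted p = 0.154, limma) in the Med23 set and 0.13 (SE 0.10, adjusted p = 0.580) in the Runx2 set, and the difference between the sets was -0.44 (SE 0.14, adjusted p = 0.173).

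The 6 osteoblast markers, genes of the cells that carry PTH1R in bone, were lower in the Med23 set, as Pth1r was. They summed to 16232 to 22288 FPKM in P-Ctrl and 6155 to 9844 FPKM in P-KO, and 6 of 6 had a fold change below 0 with 1 called. In the Runx2 set 4 of 6 were above 0 with 0 called. Their mean log2(FPKM + 1) was 8.87 in R-WT and 8.72 in R-Het, while Pth1r had a fold change of 0.13. Over the 12 mice their mean had an r of 0.67 with Pth1r. Their part in the difference was not tested. With the muscle mean as a covariate the Pth1r fold change in the Med23 set was -0.14 (adjusted p = 0.607; 0.0969 to 0.607 over all alternatives). Pth1r shares 95 of its 2925 exon bases with Myl3, a muscle myosin light chain gene on the opposite strand, whose mean level was 2.20 FPKM in P-Ctrl, 8.40 in P-KO, 9.74 in R-WT and 1.39 in R-Het. Reads of the shared stretch cannot be assigned without strand.

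The files gave 3 RefSeq transcripts of Pth1r, which share the start codon at 110742298 to 110742300 and differ in the exons before it. NM_011199 starts farthest upstream, at 110747122, NM_001083935 at 110743686 and NM_001083936 at 110742719 (GENCODE models). In R-WT the NM_001083935 values were 36.0, 70.7 and 28.4 FPKM, those of NM_001083936 were 18.0, 14.6 and 28.9 FPKM, and those of NM_011199 were 18.0, 0.176 and 16.9 FPKM. In R-Het they were 68.1, 32.1 and 21.7 FPKM, 16.2, 25.1 and 51.3 FPKM, and 7.93, 22.5 and 9.51 FPKM.

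The division thus differed between mice of 1 group: NM_001083935 made up 38.2 to 82.7% of the sum in R-WT and 26.3 to 73.8% in R-Het, but 35.5 to 50.3% in P-KO and 37.7 to 48.0% in P-Ctrl. Over the 12 mice each transcript had a coefficient of variation of 36.6 to 48.0%, against 13.7% for the sum. Taking the transcript with the highest mean in place of the sum turned the Runx2 set value of Pth1r to -0.20 (adjusted p = 0.896; 0.352 to 0.930 over all alternatives). Gene sums are used throughout.

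**Figure D4:**
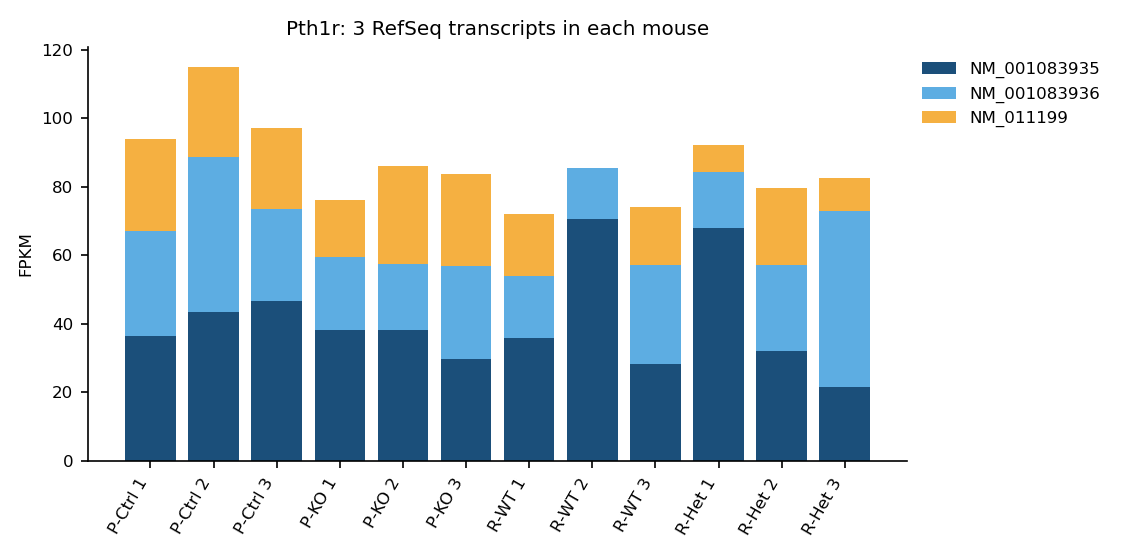
FPKM of the 3 RefSeq transcripts of Pth1r in each of the 12 mice (stacked bars; y axis from 0). The height of the stack runs from 72.0 to 115 FPKM, while NM_011199 runs from 0.176 to 28.7 FPKM and is close to 0 in R-WT replicate 2.

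Beyond the members, 18 of 21 other genes of Hedgehog release, reception and relay passed the filter, and 0 changed in either set by limma. In the Med23 set 1 of the 18 had an unadjusted p under 0.05 (21.3% of all genes), and the median log2 fold change was 0.03 against 0.06 over all genes. In the Runx2 set 5 of 18 had an unadjusted p under 0.05 (15.4% of all genes), 15 were above 0 and the median was 0.18 against 0.02. limma without the trend also called 0 of them in both sets.

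Cdon, a co-receptor gene, was at 11.1, 12.3 and 9.13 FPKM in R-WT and at 17.5, 15.4 and 17.3 FPKM in R-Het. The groups stood well apart, with a log2 fold change of 0.59 (SE 0.12, adjusted p = 0.0542), and the adjusted p was 0.0370 with all 12 mice in 1 fit and 0.0370 to 0.942 over all alternatives. In the Med23 set Cdon had a fold change of 0.20 (adjusted p = 0.267). Scube3, of a family of secreted proteins that help release the ligand, was at 2.46, 2.46 and 1.88 FPKM in R-WT and 3.80, 3.90 and 3.56 FPKM in R-Het (log2 fold change 0.55, SE 0.12, adjusted p = 0.0643), and at 0.37 (adjusted p = 0.242) in the Med23 set. Gpr161, a ciliary receptor gene that restrains the pathway, had a fold change of 0.39 (adjusted p = 0.235) in the Med23 set.

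Of 8 further Hedgehog target genes 4 passed the filter and 0 changed. At an unadjusted p under 0.05 there were 0 of 4 in the Med23 set (21.3% of all genes) and 1 of 4 in the Runx2 set (15.4%). Ccnd2, which encodes a cyclin of the cell cycle, had log2 fold changes of 0.14 (adjusted p = 0.308) and 0.34 (adjusted p = 0.133). Ccnd1, another cyclin gene, was at 0.21 (adjusted p = 0.391) in the Med23 set, and Mycn, a growth-promoting transcription factor gene, at -0.37 (adjusted p = 0.380) in the Runx2 set.

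**Figure D5:**
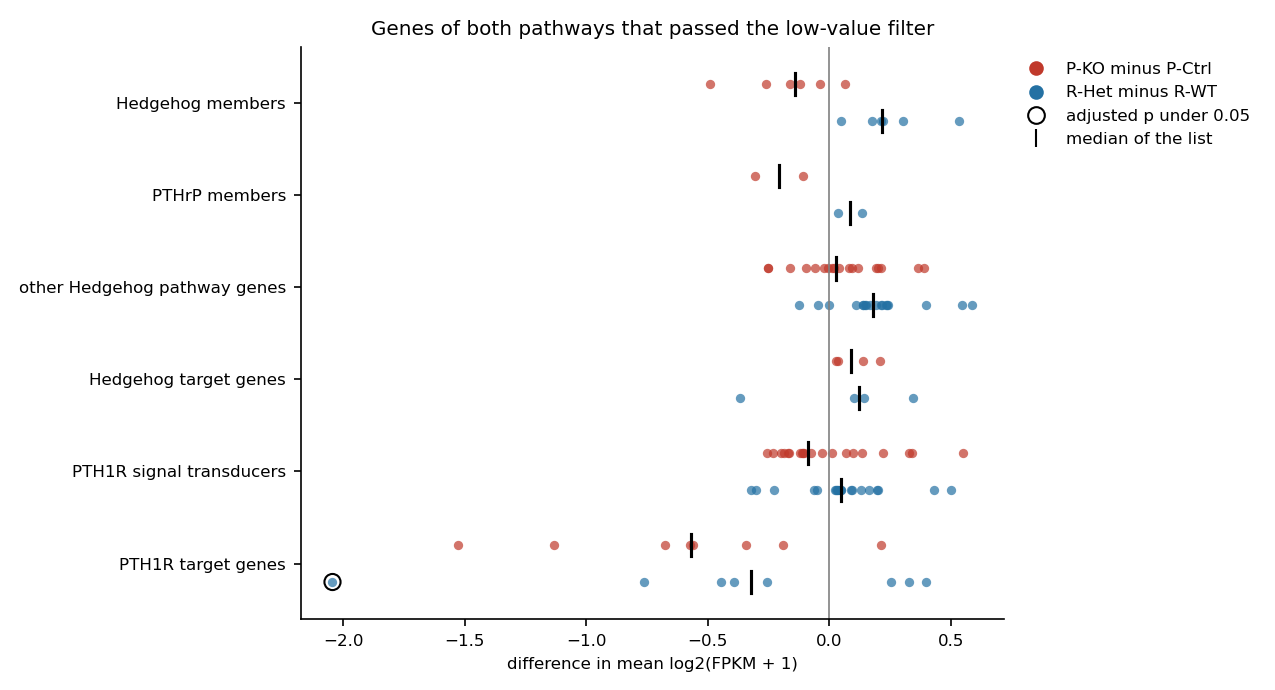
Difference in mean log2(FPKM + 1) between mutant and littermate mice (x axis) for each gene tested in the lists named on the y axis, for the Med23 set (red) and the Runx2 set (blue), with the median of each list (vertical bars). The only gene with an adjusted p under 0.05 (ringed) is Mmp13 in the Runx2 set, at -2.04.

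Downstream of PTH1R, 20 of 22 signal transducers passed the filter and 0 changed in either set. At an unadjusted p under 0.05 there were 4 of 20 in the Med23 set (21.3% of all genes) and 2 of 20 in the Runx2 set (15.4%). Ramp2, whose product pairs with PTH1R and other receptors, was at 47.4, 71.8 and 64.0 FPKM in P-Ctrl and at 86.7, 77.8 and 103 FPKM in P-KO (log2 fold change 0.55, SE 0.17, adjusted p = 0.133), and had a fold change of 0.43 (adjusted p = 0.227) in the Runx2 set. Prkaca, the catalytic subunit gene of protein kinase A, was at 0.34 (adjusted p = 0.230) in the Med23 set, and Sik1, a kinase gene induced by cyclic AMP, at 0.50 (adjusted p = 0.193) in the Runx2 set. limma without the trend called 0 of these transducers too.

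Of 10 genes known to respond to PTH1R, 8 passed the filter and 1 fell in the Runx2 set, with 0 called in the Med23 set. At an unadjusted p under 0.05 there were 5 of 8 in the Med23 set (21.3% of all genes) and 6 of 8 in the Runx2 set (15.4%). The gene called was Mmp13, a collagenase gene of osteoblasts and hypertrophic chondrocytes that RUNX2 also regulates. It was at 1777, 1283 and 1585 FPKM in R-WT and at 453, 295 and 383 FPKM in R-Het, a log2 fold change of -2.04 (SE 0.18, adjusted p = 0.00540, limma). In the Med23 set it was at 1599, 1063 and 1656 FPKM in P-Ctrl and at 809, 501 and 288 FPKM in P-KO, a fold change of -1.53 (SE 0.36, adjusted p = 0.0811), and the difference between the sets was 0.52 (adjusted p = 0.642). With the muscle mean as a covariate Mmp13 stood at -1.97 (adjusted p = 0.539; 0.00138 to 0.539 over all alternatives) in the Runx2 set.

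Sost, the sclerostin gene of osteocytes that PTH1R signalling represses, was at 13.0, 17.4 and 18.1 FPKM in P-Ctrl and at 4.72, 6.20 and 10.3 FPKM in P-KO. All P-KO mice were below all P-Ctrl mice (log2 fold change -1.14, SE 0.25, adjusted p = 0.0715). The call depended on the fit, with adjusted p-values of 0.0315 under a replicate block, 0.0357 with all 12 mice in 1 fit and 0.0315 to 0.359 over all alternatives. In the Runx2 set the groups overlapped (0.33, adjusted p = 0.549), and the difference between the sets was -1.46 (adjusted p = 0.0975, and 0.0481 with the block). Tnfsf11, the gene of the osteoclast factor RANKL, was at -0.56 (adjusted p = 0.159) in the Med23 set and at -0.76 (adjusted p = 0.160) in the Runx2 set. In the latter it was at 15.6, 12.9 and 16.2 FPKM in R-WT and at 6.57, 6.74 and 12.9 FPKM in R-Het, where the highest R-Het and the lowest R-WT mouse were nearly level, and without R-Het replicate 3 its fold change was -1.05 (adjusted p = 0.0267; 0.0267 to 0.591 over all alternatives). The 5 osteoclast markers had fold changes below 0 in both sets. In the Runx2 set 2 fell (Calcr and Dcstamp, both genes of osteoclasts), where 1.89% of all genes passed the test. There 5 of 5 had an unadjusted p under 0.05 (15.4% of all genes). In the Med23 set 0 of these markers fell and 0 had an unadjusted p under 0.05 (21.3% of all genes). They summed to 3910 to 7124 FPKM in P-Ctrl, 3646 to 4651 FPKM in P-KO, 4399 to 5820 FPKM in R-WT and 2960.3 to 3637 FPKM in R-Het, with no marker at 0, and their part in the values of Mmp13 and Tnfsf11 was not tested.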

How the data were processed

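RNA-seq libraries of the calvaria of 12 mice were analysed, 3 in each of 4 groups given by the labels. The authors deposited, for every mouse, FPKM values by RefSeq transcript, a unit taken from the values themselves; they made the libraries with the TruSeq kit from total RNA, and the submitters' processing notes name Bowtie 0.12.8 and mm10. The program behind the FPKM values is not given in the sources used here. Transcripts were matched to genes (30015 of 30411) and FPKM values summed per gene. Genes reaching 1 FPKM in 3 or more mice were tested with limma 3.58.1 (R 4.3.3; lmFit and eBayes with trend) on log2(FPKM + 1), 6 mice per set and 12 for the difference between the sets, with Benjamini-Hochberg adjustment and a threshold of 0.05. Fold changes on this scale understate those of low genes. Depth was estimated from the smallest values. Scripts were tested on simulated data. No source says that replicates differ in batch. All 9 members are named, with, per list and set, called genes and the 2 largest fold changes, and the 3 genes most like each member (for Gli2 not reported here); members and lists were chosen with earlier results of these data known. Alternatives were another pseudocount, no filter, other scalings, covariates, a replicate block, all mice in 1 fit, 1 transcript per gene, libraries without Xist, and each mouse left out.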

Additional observations from a re-analysis of the deposited data

Results flagged for a closer look

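Hhip lay apart in opposite directions in the 2 sets. Every P-KO mouse was below every P-Ctrl mouse, and every R-Het mouse was above every R-WT mouse, so that the log2 fold changes of -0.49 and 0.53 had opposite signs. Their difference was -1.03 (SE 0.22), but it did not pass the threshold after adjustment over 13059 genes (limma, adjusted p = 0.0710; 0.0598 to 0.999 over 21 alternatives). Its direction held in all 21 of these, with values from -1.22 to -0.76. With the muscle mean as a covariate, however, Hhip was at -0.49 in the Med23 set and at -0.28 (SE 0.29) in the Runx2 set, the same sign. In the Runx2 set muscle content and genotype cannot be told apart. These 2 values come from separate fits, each with its own muscle slope. The difference came from 1 fit over the 12 mice with 1 shared slope, and was -0.76 (adjusted p = 0.999). It is therefore not the first value minus the second. The muscle markers had medians of 2.50 and -3.69 in the 2 sets and an r of -0.72 with Hhip over the 12 mice. Hhip was the only member with groups apart in opposite directions.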

How the results depend on the processing

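No member passed the threshold under any alternative in either set or for the difference between the sets. Of 793 values recomputed, 752 kept their direction and side of the threshold and 27 changed sign, none of which was past the threshold before or after. With the muscle mean as a covariate, the Med23 set gave 0.0011 for Ptch1 and 0.14 for Gli2, the Runx2 set -0.47 for Ptch1, -0.10 for Gli1, -0.37 for Gli2, -0.34 for Gli3 and -0.28 for Hhip, and the difference 0.19 for Ptch1 and 0.29 for Gli2 (log2). With the cartilage mean the Med23 set gave 0.046 for Ptch1, -0.011 for Smo and 0.14 for Pthlh. Rescaling to the same sum moved the median of all genes from 0.04 to -0.09 in the difference and from 0.06 to -0.03 in the Med23 set, where Smo became -0.038. Without the Xist-expressing libraries Gli2 was 0.053 in the Med23 set and the difference for Smo 0.058, and the highest transcript gave -0.20 for Pth1r in the Runx2 set.

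Over the leave-one-out fits the Med23 set ranged from -0.31 to 0.00073 for Ptch1, -0.015 to 0.11 for Smo, -0.10 to 0.046 for Gli2 and -0.21 to 0.042 for Pthlh. The Runx2 set ranged from -0.060 to 0.15 for Gli3 and -0.27 to 0.35 for Pthlh, and the difference from -0.46 to 0.16 for Pthlh. The r of Pthlh and Pth1r ranged from -0.038 to 0.54.

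PTH1R targets called in the Runx2 set, 1 as reported, were 0 without the filter, where Mmp13 had an adjusted p of 0.104, 0 with the muscle covariate, and 1 to 2 over the leave-one-out fits (2 without R-Het replicate 3, with Tnfsf11). With all 12 mice in 1 fit 2 were called in the Med23 set (Mmp13, adjusted p = 0.0243, and Sost, 0.0357) and 1 other Hedgehog gene in the Runx2 set (Cdon). The replicate numbers were not taken to pair the mice, since no label says what a number shares and not every r was over 0.1, and in the Med23 set this is undecided: same-numbered deviations had r of 0.18, 0.26 and 0.05 in the Med23 set, where each was the highest for its number, and 0.00, -0.05 and -0.08 in the Runx2 set. With a replicate block 1 PTH1R target, Sost, was called in the Med23 set (-1.14, adjusted p = 0.0315) and 1, Sost, in the difference (-1.46, adjusted p = 0.0481), and calls over all genes went from 205 to 273, from 247 to 90 and from 20 to 136. Calls over all genes without the filter were 35, 18 and 2; with the muscle covariate 1, 1 and 0; with all 12 mice in 1 fit 717 and 95. Depth limits Ihh, at 3 to 13 fragments a mouse, most.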
